A study of Mus musculus with 10 samples.

Results

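The comparison described here sets an induced pluripotent line, piPS-2F, against the neural stem cell line it was made from, pNSC, across all genes that the arrays detected. Its members are 4 of the 10 arrays of the series, 2 for each line, and every gene with a probe detected on both arrays of either line, which gave 8585 genes. Both lines are mouse and parthenogenetic: they stem from unfertilized, activated eggs, and all their chromosomes are maternal. pNSC are parthenogenetic neural stem cells. The label of piPS-2F gives NSC that overexpressed Oct4 and Klf4 as its source, although 1 label of its second array names Klf5 in place of Klf4. Where a result is set against cells that were never reprogrammed, it uses female neural stem cells (fNSC), female embryonic stem cells labelled OG2 (fESC) and pESC-B, parthenogenetic embryonic stem cells that had been SSEA-1 sorted (an antigen of pluripotent cells), each on 2 arrays. The series describes 5 samples run in duplicate, so the 2 arrays of a line may share 1 RNA source, and p-values measure the spread between duplicate arrays, which may be technical.

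Neural stem cells grow as adherent or sphere cultures in growth factors, and much of their transcription serves glial and neuronal fate: neurotrophin receptors, adhesion molecules of the axon, proteoglycans and the lipid-handling enzymes of astrocytes. Pluripotent cells divide with a short gap before DNA synthesis, keep up a large output of ribosomes, DNA replication and repair proteins, and form an epithelium held together by E-cadherin. Reprogramming with transcription factors replaces the first state with the second, so the loss of one program and the gain of the other can be followed gene by gene.

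The log2 signal is the background-corrected, normalized array intensity on the log2 scale, and a difference is piPS-2F minus pNSC on that scale, with its standard error (SE). Calls required 2-fold or more and an adjusted p below 0.05. Of 8585 genes, 4870 were called, 2471 higher and 2399 lower in piPS-2F (56.7% in all, 28.8% higher and 27.9% lower). With arrays scaled on their medians instead of by quantiles, the split was 1650 higher and 3393 lower, and the median difference over all genes moved from 0.05 to -0.55, so directions below are relative to the bulk of the genes. At least 8-fold differences were found for 878 genes, 380 higher and 498 lower (10.2% in all, 4.43% higher and 5.8% lower). By detection, 6239 genes were found in both lines, 978 in piPS-2F only and 830 in pNSC only.

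The 4 arrays detected between 11035 and 11385 probes each. Duplicates correlated across genes at 0.991 in piPS-2F and 0.996 in pNSC, and the lines at 0.640. The mean raw intensity was 625 and 617 on the pNSC arrays and 291 and 287 on the piPS-2F arrays, so the comparison also sets dimmer against brighter arrays, and the part of brightness in the results cannot be told apart from the lines. The labelled identities were checked on the reprogramming genes. Pou5f1, which encodes Oct4, gave 4.54 and 4.44 on the pNSC arrays and 12.92 and 13.10 on the piPS-2F arrays, and Nanog, another core pluripotency factor, 4.79 and 4.89 on the pNSC arrays and 11.86 and 11.86 on the piPS-2F arrays. Klf4 differed by 2.91 (SE 0.22, adjusted p = 2e-07). Sox2, which neural stem cells express by themselves, gave 9.53 and 9.25 on the pNSC arrays and 9.98 and 9.90 on the piPS-2F arrays. Its difference of 0.55 fell short of 2-fold, and a second Sox2 probe read -3.18, so the gene has no settled direction. Myc was not called either (-0.32 (SE 0.18, adjusted p = 0.11)). A probe within the coding sequence cannot tell a transgene from the cell's own gene, and where these probes lie was not checked.

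Promoters of the leading genes outside the known pluripotency, neural and imprinted lists are shown first, since these genes separate the lines the most. Rhox5 and Wfdc2 stand for the genes gained and Acsbg1 and Ptn for those lost, each being among the first 2 in its direction with an entry in the promoter table. The 300 bases run from 250 before to 50 after the start of transcription, from RefSeq on the build GRCm38.p6, 5′ to 3′ on the gene's own strand. Capitals mark a match to any of 8 short motifs listed further on. The windows lie at chrX:37754358-37754657, plus strand for Rhox5, chr2:164562465-164562764, plus strand for Wfdc2, chr9:54661836-54662135, minus strand for Acsbg1 and chr6:36810130-36810429, minus strand for Ptn.
Rhox5: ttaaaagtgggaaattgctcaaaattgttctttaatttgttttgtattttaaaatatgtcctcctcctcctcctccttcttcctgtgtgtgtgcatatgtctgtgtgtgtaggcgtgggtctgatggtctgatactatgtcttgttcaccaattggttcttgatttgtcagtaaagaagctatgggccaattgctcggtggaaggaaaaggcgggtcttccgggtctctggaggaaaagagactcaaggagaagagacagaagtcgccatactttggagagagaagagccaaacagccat
Wfdc2: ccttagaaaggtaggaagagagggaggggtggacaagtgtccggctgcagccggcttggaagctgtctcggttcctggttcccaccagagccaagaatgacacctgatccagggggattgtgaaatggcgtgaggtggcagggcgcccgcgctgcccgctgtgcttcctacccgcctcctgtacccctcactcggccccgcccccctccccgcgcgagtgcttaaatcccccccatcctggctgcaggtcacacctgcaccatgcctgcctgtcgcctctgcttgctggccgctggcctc
Acsbg1: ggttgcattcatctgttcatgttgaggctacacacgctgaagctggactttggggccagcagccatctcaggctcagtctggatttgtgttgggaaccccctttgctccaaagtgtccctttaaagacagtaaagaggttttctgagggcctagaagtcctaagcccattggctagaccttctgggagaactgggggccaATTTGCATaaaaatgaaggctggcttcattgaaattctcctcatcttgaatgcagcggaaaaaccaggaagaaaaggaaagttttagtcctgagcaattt
Ptn: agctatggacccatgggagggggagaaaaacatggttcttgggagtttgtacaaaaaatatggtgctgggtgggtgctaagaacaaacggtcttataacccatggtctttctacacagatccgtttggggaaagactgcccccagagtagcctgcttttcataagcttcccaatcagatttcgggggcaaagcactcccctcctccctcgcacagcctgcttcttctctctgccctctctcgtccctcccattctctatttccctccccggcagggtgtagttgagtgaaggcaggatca
The sole motif match in these windows was the octamer read by POU factors such as Oct4, in the reverse orientation ATTTGCAT and starting at base -50 of Acsbg1, a gene that fell. The Wfdc2 window holds 16 CpG, the dinucleotide that DNA methylation acts on, against 5 for Rhox5, 2 for Acsbg1 and 6 for Ptn.

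Among the 15 genes that rose most outside the known lists, 14 were detected on neither pNSC array, so their folds are lower bounds. Rhox5, a homeobox gene of the reproductive cluster on chromosome X, gave 4.71 and 4.86 on the pNSC arrays and 12.72 and 12.57 on the piPS-2F arrays. It was at least 147-fold higher, a difference of 7.86 (SE 0.17, adjusted p = 2.4e-11). Llgl2, a regulator of epithelial cell polarity, gave 4.58 and 4.64 on the pNSC arrays and 12.51 and 12.22 on the piPS-2F arrays, and Tfap2c, an AP-2 factor of trophoblast and germ cells, 4.60 and 4.66 on the pNSC arrays and 12.16 and 12.03 on the piPS-2F arrays. In all 3 genes the duplicates lay close together and the lines were far apart. Wfdc2, which encodes a secreted protease inhibitor-like protein of epithelia, gave 4.84 and 4.48 on the pNSC arrays and 12.25 and 12.05 on the piPS-2F arrays and rose at least 104-fold, although its second probe differed by 1.96 only.

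Several of these genes act on RNA or chromatin. Igf2bp1, an RNA-binding protein of the fetal program, rose at least 64.8-fold (4.34 and 4.38 in pNSC against 11.50 and 11.43 in piPS-2F). Rbpms, an RNA-binding protein, rose at least 83.6-fold, and Rbmxl2, a germ cell relative of an X-linked splicing protein, at least 41.2-fold. Epop, which binds Polycomb repressive complex 2, was the one gene of the 15 already detected in pNSC (6.57 and 6.42 in pNSC against 13.47 and 13.43 in piPS-2F, a difference of 6.95 (SE 0.13, adjusted p = 9.7e-12)). Zfp985, a zinc finger gene, rose at least 74.6-fold. Others handle small molecules or stress: Slc7a3, a carrier of cationic amino acids, rose at least 116-fold, Gstp2, a glutathione transferase, at least 53.4-fold, Pla2g1b, a secreted phospholipase, at least 62.6-fold, and Hspb1, a small heat shock protein, at least 67.2-fold. Laptm5, best known as a lysosomal protein of blood cells, gave 4.75 and 4.55 on the pNSC arrays and 11.82 and 11.83 on the piPS-2F arrays. Mylpf, a myosin light chain of fast muscle, rose at least 67.0-fold (4.61 and 4.49 in pNSC against 11.54 and 11.49 in piPS-2F).

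The 15 genes that fell most outside the known lists included receptors, adhesion proteins and lipid enzymes of glia and neurons. Acsbg1, an acyl-CoA synthetase of brain, gave 12.55 and 12.63 on the pNSC arrays and 4.50 and 4.54 on the piPS-2F arrays, at least 146-fold lower and undetected after reprogramming, with a difference of -8.07 (SE 0.16, adjusted p = 1.6e-11). Ptn, which encodes the secreted growth factor pleiotrophin, was among the brightest genes of pNSC, with 14.40 and 14.53 on the pNSC arrays and 6.74 and 7.05 on the piPS-2F arrays. It was still detected on both piPS-2F arrays and was 190-fold lower. Ntrk2, the receptor of brain-derived neurotrophic factor, gave 12.61 and 12.70 on the pNSC arrays and 4.53 and 5.94 on the piPS-2F arrays, and was detected on 1 of the 2 piPS-2F arrays. Its probes did not behave alike, with differences from -4.90 to -0.81 for the other 2.

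Kcnc1, a voltage-gated potassium channel, fell at least 101-fold (12.12 and 11.98 in pNSC against 4.56 and 4.83 in piPS-2F), although a second probe differed by -1.10 only. Cntn1, a contactin of axons, fell at least 72.8-fold, Ctnnd2, a neuronal catenin, at least 56.5-fold, Astn1, an astrotactin of migrating neurons, at least 75.6-fold, and Nxph1, a ligand of neurexins, at least 54.6-fold. Cspg5, a brain chondroitin sulfate proteoglycan, gave 12.57 and 12.43 on the pNSC arrays and 5.88 and 5.15 on the piPS-2F arrays, and Atp1b2, the sodium pump beta subunit of astrocytes, 12.03 and 12.05 on the pNSC arrays and 4.83 and 5.51 on the piPS-2F arrays. Both were detected on 1 of the 2 piPS-2F arrays. Timp4, an inhibitor of matrix metalloproteases, fell at least 83.0-fold, Lrrn1, a leucine-rich neuronal membrane protein, at least 79.6-fold, Pla2g7, a phospholipase that inactivates platelet-activating factor, at least 50.5-fold, and Ramp1, a subunit of the receptor for calcitonin gene-related peptide, at least 50.7-fold. Fam181b gave 12.39 and 12.34 on the pNSC arrays and 5.48 and 5.10 on the piPS-2F arrays. All 30 leading genes differed in the same direction between fESC and fNSC.

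**Figure D1:**
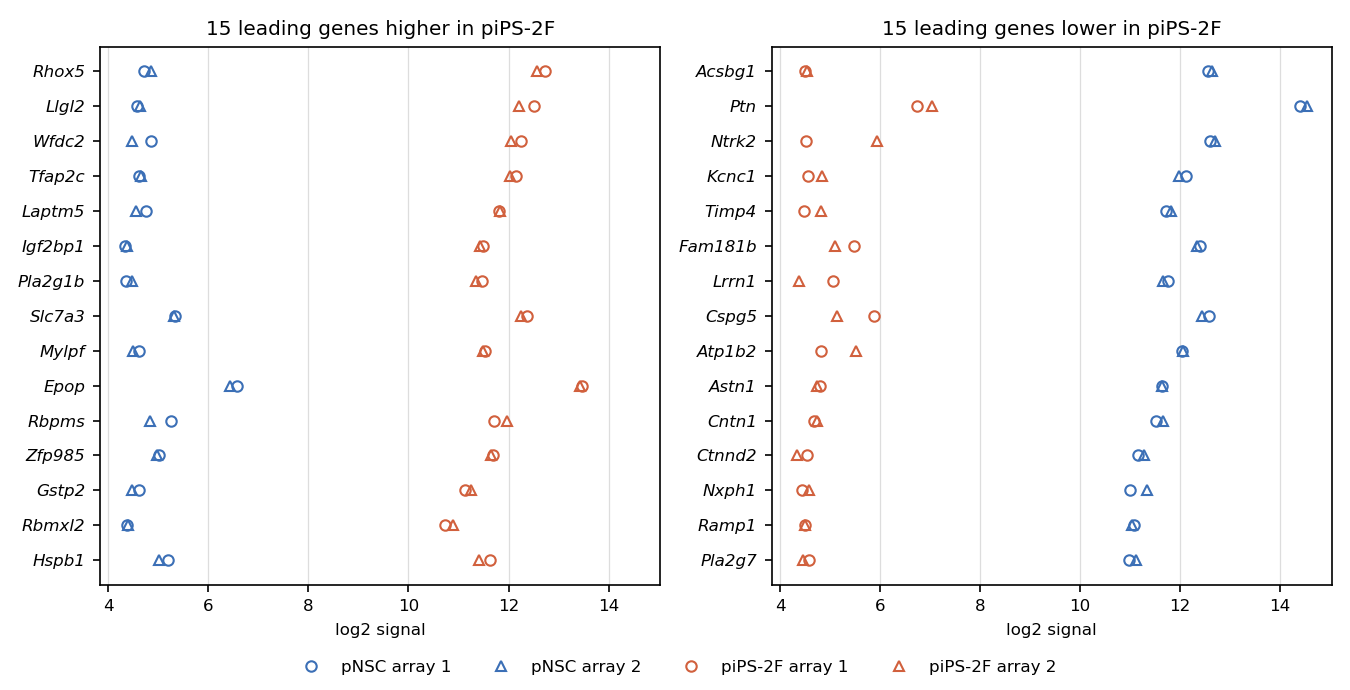
Log2 signal of the 15 leading genes in each direction on each of the 4 arrays (circles array 1, triangles array 2). The lines do not overlap for any gene, and the dimmer line lies between 4.34 and 5.94 for every gene but Epop and Ptn.

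Gene lists by function gave the wider picture. They also hold genes of the known lists, among them Dnmt3l, Dnmt3b, Fabp7 and Aldoc, which the leading genes leave out. A list is described by how many of its tested members were called, beside 28.8% higher and 27.9% lower over all genes. Where counts with median scaling are given, all 8585 genes stood at 1650 higher and 3393 lower under that setting, with a median of -0.55. A change of a list's counts with that scaling is to be read beside this shift of all genes. Lists whose members were mostly detected in both lines are given first, because a gene detected in 1 line only had to differ in order to be tested.

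The machinery of DNA synthesis was higher in piPS-2F. Of 45 tested DNA replication genes 32 were higher and 4 lower (71.1% and 8.89%, or 25 and 7 genes with median scaling), with a median difference of 1.71 against 0.05 over all genes. Mcm3, a subunit of the replicative helicase, gave 7.49 and 7.55 on the pNSC arrays and 10.95 and 11.09 on the piPS-2F arrays, 11.3-fold higher with a difference of 3.50 (SE 0.13, adjusted p = 1e-09). Mcm10, a helicase loading factor, differed by 3.14 and Pola2, a subunit of the priming polymerase, by 2.77. The exceptions included Pcna, the sliding clamp, with 9.09 and 9.03 on the pNSC arrays and 6.46 and 6.74 on the piPS-2F arrays, a difference of -2.46 (SE 0.24, adjusted p = 2.2e-06). Orc4 and Prim1 were lower as well, by -1.79 and -1.08, and the probes used for both were undetected in piPS-2F. In fESC against fNSC these 3 genes gave 0.33, -0.32 and 1.89.

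Nucleotide synthesis went the same way, with 18 of 29 genes higher and 4 lower. Hprt, the purine salvage enzyme, gave 8.76 and 8.78 on the pNSC arrays and 12.87 and 13.20 on the piPS-2F arrays, and Gart, an enzyme of purine synthesis, 8.52 and 8.47 on the pNSC arrays and 11.96 and 12.04 on the piPS-2F arrays. Thymidylate synthase, Tyms, differed by 2.02 (SE 0.18, adjusted p = 8.1e-07). Paics, another purine enzyme, was lower (7.13 and 7.45 in pNSC against 6.36 and 5.49 in piPS-2F). Of 38 mitosis genes 24 were higher and 2 lower (13 and 7 with median scaling). Cdc25a, the phosphatase that opens S phase, differed by 3.08 (SE 0.13, adjusted p = 2.1e-09) and Aurka, a spindle kinase, by 2.76 (SE 0.17, adjusted p = 4.1e-08). Ncapg2, a condensin subunit, was called lower from its brighter probe, while its other probe read 2.37, so it has no settled direction.

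No tested DNA repair gene was called lower, and 32 of 48 were called higher (66.7%, median 1.53, or 22 higher and 1 lower with median scaling). Ung, which removes uracil from DNA, gave 8.19 and 8.27 on the pNSC arrays and 11.78 and 12.21 on the piPS-2F arrays and was 13.6-fold higher. Msh6, a mismatch repair protein, gave 10.67 and 10.53 on the pNSC arrays and 13.90 and 13.74 on the piPS-2F arrays, and Rad54b, of homologous recombination, 7.59 and 7.86 on the pNSC arrays and 11.34 and 11.14 on the piPS-2F arrays. All 3 lay at least 9.29-fold above pNSC. Of 15 telomere genes 11 were higher and 1 lower (8 and 2 with median scaling). Zscan4c, of the telomere-linked family that flickers on in embryonic stem cell cultures, was undetected in pNSC (4.64 and 4.65 in pNSC against 9.59 and 9.67 in piPS-2F). Terf2, a telomere-binding protein, was the member that fell (-2.69 (SE 0.16, adjusted p = 2.6e-08)).

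Genes that assemble ribosomes were higher, and those of the ribosome itself mostly were not called. Of 48 ribosome biogenesis genes, all detected in both lines, 34 were higher and none lower (70.8%, median 1.80, or 28 and 2 genes with median scaling). Rrp1b, a nucleolar processing factor, gave 7.31 and 7.57 on the pNSC arrays and 10.84 and 10.84 on the piPS-2F arrays, Imp4, of the small subunit processome, 9.62 and 9.49 on the pNSC arrays and 12.76 and 12.97 on the piPS-2F arrays, and Ddx18, a nucleolar helicase, 10.42 and 10.34 on the pNSC arrays and 13.52 and 13.57 on the piPS-2F arrays. Their differences were 3.40 (SE 0.17, adjusted p = 8.4e-09), 3.31 (SE 0.14, adjusted p = 1.7e-09) and 3.16 (SE 0.12, adjusted p = 1e-09). Of 57 cytosolic ribosomal protein genes 6 were higher and 9 lower (10.5% and 15.8%), with a median of 0.05, and 42 were not called. Ribosomal protein probes can share sequence with pseudogene copies, so single members are uncertain.

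Translation factors followed in part. Of 16 cytosolic tRNA synthetases 10 were higher and none lower (6 and 1 with median scaling), led by Farsb at 2.22 (SE 0.13, adjusted p = 2.9e-08). Of 43 initiation factor genes 17 were higher and 5 lower (11 and 6 with median scaling). Eif4ebp1, which holds back cap-dependent translation, was 7.82-fold higher (9.93 and 9.54 in pNSC against 12.76 and 12.65 in piPS-2F). The proteasome, in contrast, had 32 of 40 members not called, with 5 higher and 3 lower, which median scaling turned to 2 and 8.

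**Figure D2:**
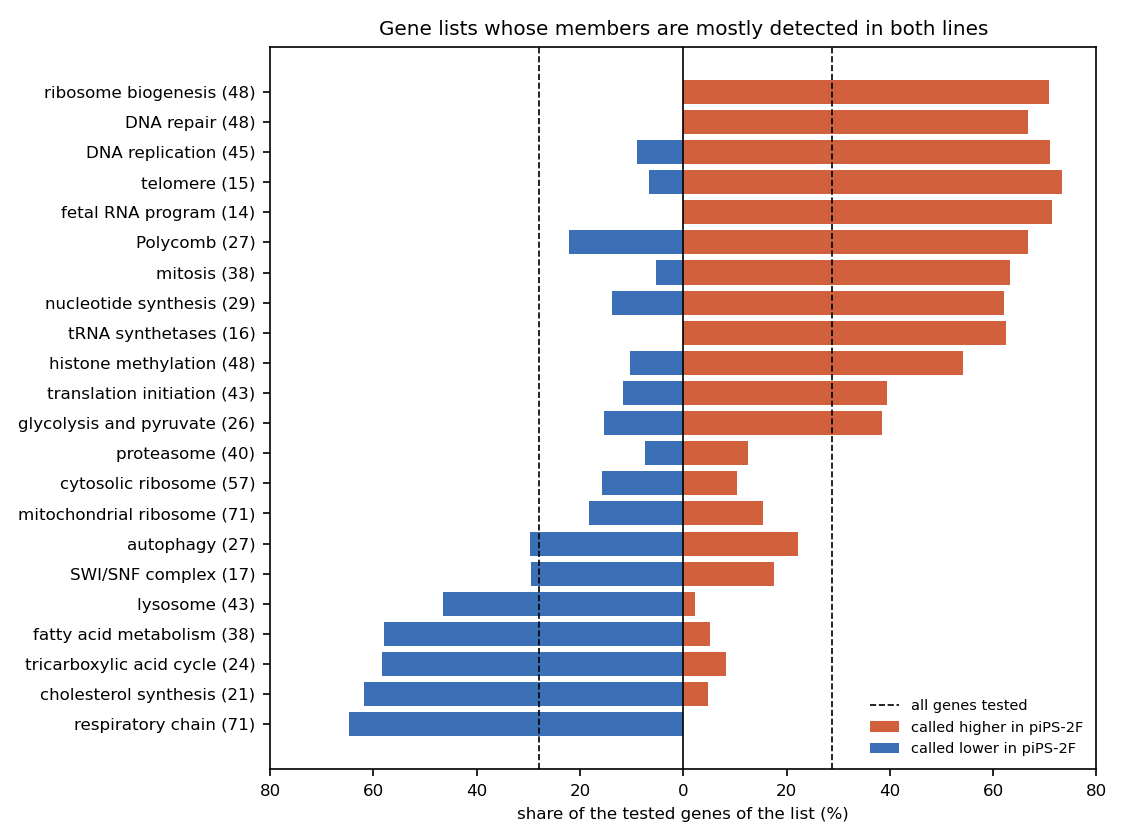
Share of the tested members of 22 gene lists called higher (right) or lower (left) in piPS-2F, with the number tested in parentheses; dashed lines mark all genes tested, 28.8% higher and 27.9% lower. Ribosome biogenesis, DNA repair, fetal RNA and tRNA synthetase genes have no member called lower under quantile normalization, and the respiratory chain none called higher.

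Genes of oxidative metabolism were lower in piPS-2F. Of 71 tested genes of the respiratory chain, the series of mitochondrial complexes that pass electrons to oxygen and make ATP, 46 were lower and none higher (64.8%, median -1.32), and 69 of the 71 were detected in both lines. By complex, 23 of 32 genes of complex I were lower, 3 of 3 of complex II, 3 of 7 of complex III, 8 of 13 of complex IV and 8 of 15 of ATP synthase. Sdhd, an anchor subunit of complex II, gave 10.18 and 10.08 on the pNSC arrays and 6.24 and 6.59 on the piPS-2F arrays, 13.1-fold lower with a difference of -3.72 (SE 0.20, adjusted p = 1.4e-08). Ndufb9, of complex I, gave 10.37 and 10.39 on the pNSC arrays and 6.80 and 6.79 on the piPS-2F arrays, and Atp5a1, the alpha subunit of ATP synthase, 12.44 and 12.51 on the pNSC arrays and 9.15 and 8.71 on the piPS-2F arrays. The catalytic beta subunit, Atp5b, differed by -0.14 and was not called. For cytochrome c, Cycs, which carries electrons between complexes, the probes did not behave alike: the brighter differed by -3.48 (SE 0.17, adjusted p = 6.7e-09) and was undetected in piPS-2F, and the other by -1.22.

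The same genes moved less in the female lines in part. Between fESC and fNSC 13 of the 71 genes were lower and 2 higher, with a median of -0.52, that is, 18.3% lower where 24.6% of all genes were lower and 23.9% higher. The test of the difference between the 2 comparisons called 26 of the 71 more negative in the parthenogenetic lines and none more positive, where it called 27.9% of all genes (1226 positive and 1167 negative). For Sdhd this interaction was -3.12 (SE 0.28, adjusted p = 1.4e-05), for Ndufb9 -3.55 (SE 0.20, adjusted p = 7e-07) and for Atp5a1 -2.94 (SE 0.27, adjusted p = 1.3e-05). The mean log2 signal of the list was 12.10 and 12.06 on the pNSC arrays, 10.63 and 10.68 on the piPS-2F arrays, 10.75 and 10.58 on the pESC-B arrays and 11.68 and 11.61 on the fESC arrays. The pESC-B arrays share the low raw intensity of the piPS-2F arrays, at 327 and 287 against 495 and 476 for fESC, and the part of array brightness in this result was not tested. Mitochondrial ribosomal proteins did not move with the chain: of 71 genes 11 were higher and 13 lower (median -0.07), or 5 and 19 with median scaling.

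**Figure D3:**
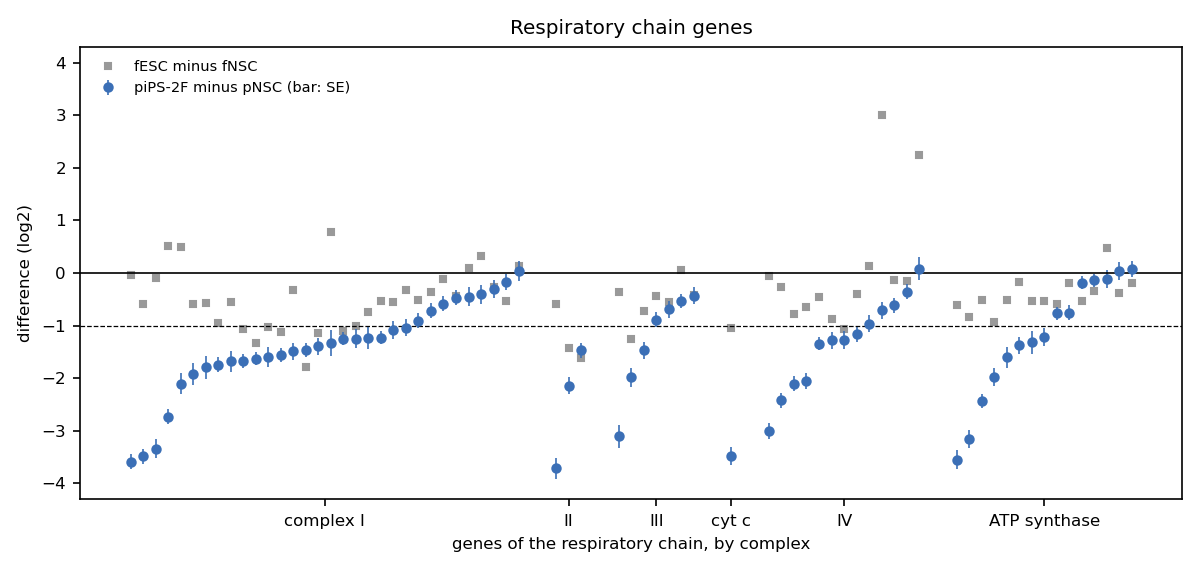
Difference (log2) of the 71 respiratory chain genes between piPS-2F and pNSC (blue circles, bar SE) and between fESC and fNSC (grey squares), ordered within each complex; the dashed line marks 2-fold lower. The blue points run from -3.72 to 0.09 and 46 genes are called lower, while the grey points lie mostly between -2 and 1.

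Other mitochondrial and lipid pathways also had more members lower than higher. The list of the tricarboxylic acid cycle, which feeds the chain, also holds side reactions, and 14 of its 24 genes were lower and 2 higher. Of the 13 tested enzymes of the cycle proper, a count made after values were seen, 10 were lower and none higher. Sdhb, Sdhc and Sdhd, all lower, are among these and were also counted as complex II of the respiratory chain. Outside the cycle proper, Me1, the cytosolic malic enzyme that makes NADPH, gave 11.69 and 11.82 on the pNSC arrays and 6.36 and 6.38 on the piPS-2F arrays and fell 41.7-fold, and Mdh1, a malate dehydrogenase, differed by -3.08 (SE 0.17, adjusted p = 1.7e-08). Acly, which turns exported citrate into acetyl-CoA, went the other way with 12.20 and 12.10 on the pNSC arrays and 13.30 and 13.52 on the piPS-2F arrays. In fatty acid metabolism 22 of 38 genes were lower and 2 higher, with 11 lower at 8-fold (a background of 5.8%). Besides Acsbg1, Acadl, which starts the oxidation of long-chain fatty acids, gave 10.93 and 10.94 on the pNSC arrays and 6.46 and 5.88 on the piPS-2F arrays and fell 27.2-fold.

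Cholesterol synthesis had 13 of 21 genes lower and 1 higher. Msmo1, a sterol oxidase, gave 9.32 and 9.31 on the pNSC arrays and 5.72 and 6.64 on the piPS-2F arrays, and Apoe, the lipid carrier secreted by astrocytes, 13.01 and 12.81 on the pNSC arrays and 10.47 and 10.33 on the piPS-2F arrays. Apoe was -2.51 (SE 0.14, adjusted p = 1.4e-08) here and 1.67 between fESC and fNSC, an interaction of -4.18 (SE 0.19, adjusted p = 2.3e-07). Of 43 lysosome genes 20 were lower and 1 higher. Laptm4b, a lysosomal membrane protein, fell at least 10.5-fold and Arsb, a sulfatase, 10.8-fold, while the exception, the mannosidase Manba, rose 26.9-fold (7.44 and 7.16 in pNSC against 11.98 and 12.12 in piPS-2F).

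Glycolysis had 10 of 26 genes higher and 4 lower (38.5% and 15.4%), and 12 not called. Hk2, the hexokinase of fast-growing tissue, gave 7.11 and 7.09 on the pNSC arrays and 12.74 and 12.74 on the piPS-2F arrays and was 49.9-fold higher, while Hk1, the form of brain, gave 7.71 and 7.67 on the pNSC arrays and 5.95 and 5.83 on the piPS-2F arrays and was 3.48-fold lower. Slc2a3, a high-affinity glucose transporter, gave 8.33 and 8.34 on the pNSC arrays and 13.29 and 13.24 on the piPS-2F arrays, and the widespread transporter Slc2a1 was higher too, by 2.87. Aldoc, the brain aldolase, gave 13.47 and 13.53 on the pNSC arrays and 6.65 and 6.67 on the piPS-2F arrays, 115-fold lower, beside a difference of 0.15 for the ubiquitous Aldoa, which was not called. Pfkp, the platelet form of phosphofructokinase, rose by 3.37 (SE 0.22, adjusted p = 6.3e-08), Pfkl, the liver form, rose by 2.18 and Pfkm, the muscle form, fell (-1.32 (SE 0.13, adjusted p = 1.6e-06)).

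**Figure D4:**
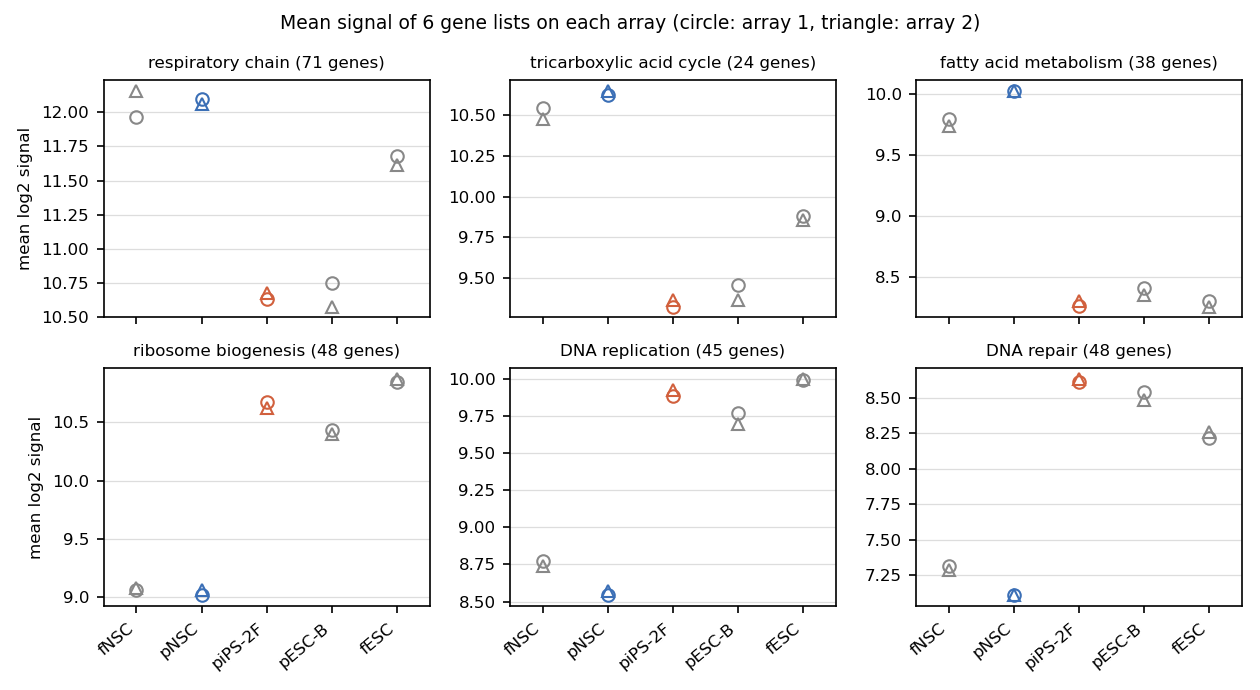
Mean log2 signal of 6 gene lists on each of the 10 arrays. The respiratory chain list lies at 12.10 and 12.06 in pNSC and at 10.63 and 10.68 in piPS-2F, with pESC-B beside piPS-2F and fESC between them and the neural lines; the ribosome biogenesis, DNA replication and DNA repair lists lie higher in all 3 pluripotent lines than in both neural lines.

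Opposite calls within families were looked for over 50 chosen pairs of related genes. Both genes of a pair were tested in 26, and 8 of these were called in opposite directions and 8 in the same. With 28.8% of all genes called higher and 27.9% lower, unrelated genes would also give pairs of both kinds. Whether related genes differ from these was not tested, and the pairs below are examples. Among the cyclins that drive entry into S phase, Ccnd2 gave 11.93 and 12.12 on the pNSC arrays and 6.39 and 6.94 on the piPS-2F arrays and fell 41.1-fold, while Ccnd3 gave 11.12 and 10.97 on the pNSC arrays and 12.99 and 13.02 on the piPS-2F arrays and rose 3.88-fold. Ccnd1 was lower by -3.12 (SE 0.13, adjusted p = 2e-09) and Ccne1 higher by 2.87 (SE 0.13, adjusted p = 4.1e-09). Among inhibitors, Cdkn2c and Cdkn2a, which block the kinases of D-type cyclins, fell 10.9-fold and 9.13-fold, though the second Cdkn2a probe read -0.84.

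Fabp7, the fatty acid binding protein of radial glia, gave 11.36 and 11.76 on the pNSC arrays and 4.48 and 4.57 on the piPS-2F arrays, and Fabp3, the heart form, 6.52 and 6.48 on the pNSC arrays and 10.73 and 10.79 on the piPS-2F arrays. The first was high in pNSC and the second in piPS-2F. Gstm1, the glutathione transferase of astrocytes, fell 22.6-fold (its other probe differed by -1.18), while Gsta4, which clears lipid peroxidation products, rose 3.93-fold. Cdh1 (E-cadherin) gave 4.88 and 4.72 on the pNSC arrays and 9.57 and 9.68 on the piPS-2F arrays and Cdh2 (N-cadherin) 8.72 and 8.85 on the pNSC arrays and 4.63 and 4.52 on the piPS-2F arrays, each detected in 1 line only.

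**Figure D5:**
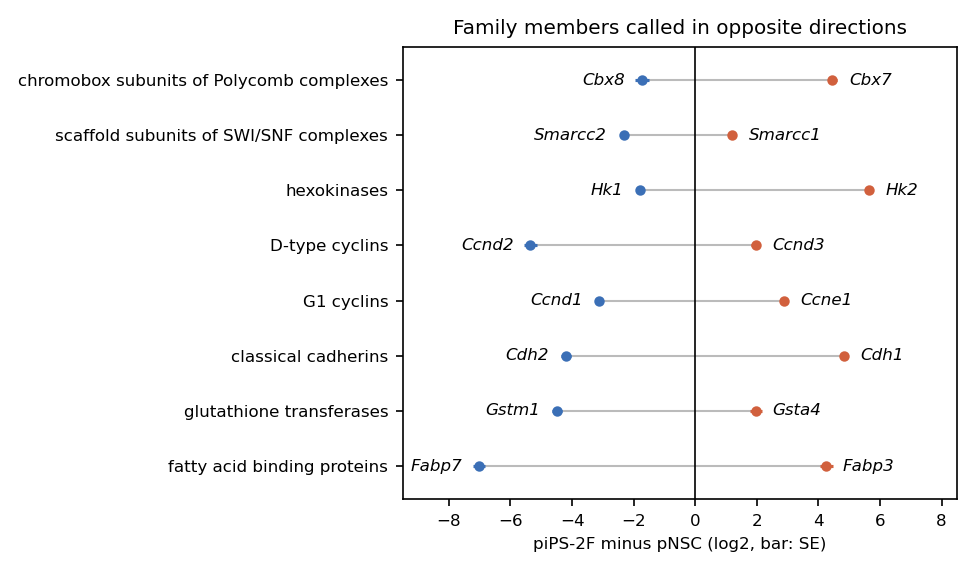
Difference between piPS-2F and pNSC (log2, bar SE) for the 8 pairs of related genes called in opposite directions. The widest spread is between Fabp3 at 4.26 and Fabp7 at -7.03, the narrowest between Smarcc1 at 1.20 and Smarcc2 at -2.32.

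Subunits of chromatin complexes moved in both directions. Of 27 Polycomb genes 18 were higher and 6 lower. Cbx7, the chromobox subunit typical of embryonic stem cells, gave 4.77 and 4.62 on the pNSC arrays and 9.19 and 9.09 on the piPS-2F arrays, and Cbx8 6.32 and 6.68 on the pNSC arrays and 4.63 and 4.88 on the piPS-2F arrays. Mtf2, a cofactor of complex 2, rose 19.3-fold (6.47 and 6.65 in pNSC against 10.85 and 10.81 in piPS-2F) and Pcgf6, of a variant complex 1, 14.0-fold (7.60 and 7.95 in pNSC against 11.52 and 11.65 in piPS-2F). Bmi1, the complex 1 subunit needed by neural stem cells, fell by 2.59 on the log2 scale. Rnf2, the ubiquitin ligase of the same complexes, was lower by -2.41 (SE 0.18, adjusted p = 2.5e-07) but gave 1.28 between fESC and fNSC. Both H3K27 methyltransferases, Ezh2 and Ezh1, were higher, by 1.37 and 1.32.

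In the SWI/SNF remodelling complex 5 of 17 genes were lower and 3 higher (10 and 1 with median scaling), and paralogs for 1 subunit position differed. The ATPase Smarca2 gave 10.57 and 10.61 on the pNSC arrays and 6.49 and 6.62 on the piPS-2F arrays and fell 16.4-fold, while the alternative ATPase Smarca4 differed by -0.30 and was not called. The scaffold subunit Smarcc1 rose 2.30-fold and its relative Smarcc2 fell 4.99-fold. Smarcd3 fell at least 12.4-fold and Smarcd2 rose 6.44-fold. Of 48 histone methylation genes 26 were higher and 5 lower; with median scaling the counts were 11 and 9. Kdm6a, the H3K27 demethylase on chromosome X, differed by 2.51 (SE 0.13, adjusted p = 1.1e-08). Of 43 histone acetylation genes 16 were higher and 6 lower, which median scaling turned to 10 and 11, so the counts depend on the scaling. The median of the list moved from 0.72 to 0.09, and that of all genes from 0.05 to -0.55. Mta3, a subunit of the NuRD deacetylase complex, gave 6.67 and 6.95 on the pNSC arrays and 12.01 and 11.82 on the piPS-2F arrays, although its second probe differed by 0.92.

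RNA-binding proteins of fetal tissue formed a small group with 10 of 14 genes higher and none lower (8 and 1 with median scaling), 4 of them detected in piPS-2F only. Lin28a, which blocks maturation of the let-7 miRNAs, gave 5.22 and 4.90 on the pNSC arrays and 9.49 and 9.51 on the piPS-2F arrays. Among splicing regulators 14 of 33 were higher and 4 lower, which median scaling turned to 10 and 9. The median of this list moved from 0.40 to -0.15, beside a move from 0.05 to -0.55 over all genes. Esrp1 and Rbm47, both of epithelial splicing, rose at least 12.4-fold and at least 35.5-fold from below detection, Ptbp1, the polypyrimidine tract-binding protein that keeps neuronal exons out, rose 5.16-fold (10.42 and 10.55 in pNSC against 12.92 and 12.78 in piPS-2F), and Celf2 fell 24.2-fold (11.16 and 11.25 in pNSC against 6.57 and 6.65 in piPS-2F).

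Signalling lists held members that moved both ways. Of 34 Notch pathway genes 17 were lower and 6 higher, but among the 18 detected in both lines 6 were lower and 3 higher. The ligand-like protein Dner gave 11.34 and 11.44 on the pNSC arrays and 5.62 and 4.98 on the piPS-2F arrays. Hes5 and Nrarp, both direct Notch targets, gave 10.35 and 10.28 on the pNSC arrays and 4.52 and 4.45 on the piPS-2F arrays and 11.37 and 11.26 on the pNSC arrays and 4.76 and 5.73 on the piPS-2F arrays. Hes5 differed by -5.83 (SE 0.15, adjusted p = 6.1e-11) here, and its mean was 6.40 in fNSC and 4.40 in fESC, an interaction of -3.83 (SE 0.21, adjusted p = 6.2e-07). Among receptors Notch4, known from endothelium, rose 20.8-fold (6.05 and 6.10 in pNSC against 10.54 and 10.36 in piPS-2F).

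In the TGF-beta and BMP pathway 20 of 44 genes were higher and 12 lower, but among the 26 detected in both lines 6 were higher and 9 lower. The Nodal antagonists Lefty1 and Lefty2 rose at least 61.5-fold and at least 49.9-fold. The receptor Bmpr1b fell at least 18.9-fold and Id2, a BMP target, gave 9.16 and 9.04 on the pNSC arrays and 6.13 and 5.53 on the piPS-2F arrays. In the Wnt pathway 15 of 47 genes were higher and 14 lower, which median scaling turned to 10 and 20. Of its ligands, Wnt7a gave 10.07 and 10.06 on the pNSC arrays and 4.41 and 4.46 on the piPS-2F arrays, Wnt5a 10.24 and 10.32 on the pNSC arrays and 5.54 and 5.72 on the piPS-2F arrays and Wnt7b 11.50 and 11.61 on the pNSC arrays and 8.15 and 7.81 on the piPS-2F arrays. The receptor Fzd7 gave 6.65 and 6.56 on the pNSC arrays and 10.27 and 10.35 on the piPS-2F arrays, and the secreted inhibitor Notum rose at least 5.73-fold from below detection.

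Receptor tyrosine kinases and their ligands had 19 of 49 genes lower and 15 higher (27 and 12 with median scaling, and 7 and 5 of the 26 detected in both lines). The epidermal growth factor receptor Egfr gave 11.56 and 11.46 on the pNSC arrays and 6.25 and 6.94 on the piPS-2F arrays and the collagen receptor Ddr1 12.05 and 12.11 on the pNSC arrays and 7.02 and 7.36 on the piPS-2F arrays. Fgf4 and Fgf17, both ligands, were found in piPS-2F only (4.48 and 4.36 in pNSC against 8.19 and 7.93 in piPS-2F for Fgf4). In the LIF and JAK-STAT list 11 of 25 genes were higher and 6 lower, which median scaling turned to 7 and 8. The feedback inhibitor Socs3 gave 7.20 and 7.08 on the pNSC arrays and 9.93 and 9.82 on the piPS-2F arrays, and Jak1 and Jak2, the kinases of these receptors, fell at least 3.31-fold and 8.59-fold.

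Surface genes were mostly found in 1 line or the other, so their counts say little beyond detection. Of 35 tested epithelial junction genes 28 were detected in piPS-2F only, and of the 4 detected in both lines 2 were higher and 2 lower. Krt42, a keratin, gave 4.62 and 4.44 on the pNSC arrays and 10.03 and 9.93 on the piPS-2F arrays, Elf3, an epithelial Ets factor, 4.57 and 4.38 on the pNSC arrays and 9.86 and 9.80 on the piPS-2F arrays, and Cldn4, a tight junction claudin, 4.45 and 4.56 on the pNSC arrays and 9.67 and 9.65 on the piPS-2F arrays. Cldn10 went the other way, with 9.43 and 9.21 on the pNSC arrays and 4.45 and 4.47 on the piPS-2F arrays. Of 27 tested cadherins and protocadherins 21 were detected in pNSC only, among them Pcdh10 (9.44 and 9.40 in pNSC against 5.22 and 4.63 in piPS-2F). Of 47 tested ion channel and transmitter receptor genes 25 were detected in pNSC only, and 5 of the 14 detected in both lines were lower and none higher. Gria2, an AMPA receptor subunit, gave 10.84 and 11.11 on the pNSC arrays and 4.42 and 4.47 on the piPS-2F arrays.

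Enzymes that build the sugar coat of the cell were lower more often than higher. Of 55 glycosyltransferase and sulfotransferase genes 27 were lower and 10 higher, and of 31 detected in both lines 14 were lower and 2 higher. Chst2, a sulfotransferase, gave 11.43 and 11.66 on the pNSC arrays and 4.76 and 5.48 on the piPS-2F arrays. Chst7, another sulfotransferase, gave 12.76 and 12.55 on the pNSC arrays and 6.50 and 5.97 on the piPS-2F arrays. Gcnt2, which branches the chains that carry blood group I, gave 4.53 and 4.67 on the pNSC arrays and 10.33 and 10.51 on the piPS-2F arrays. Of 49 tested collagen, laminin and integrin genes 24 were higher and 12 lower, and of the 25 detected in both lines 9 were higher and 6 lower. Matrix proteases and their inhibitors had 11 of 29 higher and 12 lower. Col18a1, a basement membrane collagen, gave 7.10 and 7.09 on the pNSC arrays and 12.55 and 12.45 on the piPS-2F arrays, Lox, a collagen cross-linker, 4.44 and 4.78 on the pNSC arrays and 9.55 and 10.10 on the piPS-2F arrays, and Timp1, a protease inhibitor, 5.26 and 5.66 on the pNSC arrays and 10.61 and 10.75 on the piPS-2F arrays. Among those that fell, the collagen Col26a1 gave 9.15 and 8.96 on the pNSC arrays and 5.60 and 5.44 on the piPS-2F arrays and Adam9, a membrane protease, 10.01 and 10.15 on the pNSC arrays and 6.38 and 5.86 on the piPS-2F arrays.

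Interferon-induced membrane proteins stood out for a difference between the 2 comparisons. Ifitm3 gave 6.32 and 6.42 on the pNSC arrays and 12.40 and 12.75 on the piPS-2F arrays, 73.7-fold higher, while in the female lines its means were 13.23 in fNSC and 12.09 in fESC. The interaction was 7.35 (SE 0.22, adjusted p = 1.3e-08). Its mean in pESC-B was 12.34. Ifitm2 had an interaction of 3.43 (SE 0.21, adjusted p = 1e-06), with 8.63 and 8.63 on the pNSC arrays and 12.45 and 12.33 on the piPS-2F arrays. The wider list of MHC class I and interferon genes had 24 of 47 genes higher and 12 lower here against 11 and 16 between fESC and fNSC (23.4% and 34%, beside 23.9% and 24.6% of all genes), and of 20 detected in both lines 8 were higher and 5 lower here. H2-T23, a nonclassical MHC class I gene, was lower (-2.63 (SE 0.18, adjusted p = 8.7e-08)).

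Stress genes moved both ways. Among heat shock and chaperonin genes 15 of 63 were higher and 15 lower (10 and 22 with median scaling). Hspa5, the chaperone of the endoplasmic reticulum, gave 7.85 and 7.97 on the pNSC arrays and 4.94 and 5.70 on the piPS-2F arrays, while it differed by 0.86 between fESC and fNSC. In the integrated stress response list 12 of 30 genes were higher and 8 lower, which median scaling turned to 5 and 11. Nupr1 and Chac1, targets of that response, rose at least 11.2-fold and 5.51-fold. Among antioxidant genes 11 of 42 were lower and 7 higher, both below the shares over all genes. Gsta3, a cytosolic glutathione transferase, gave 4.70 and 4.65 on the pNSC arrays and 10.70 and 10.69 on the piPS-2F arrays and Mgst1, a microsomal one, 10.37 and 10.45 on the pNSC arrays and 4.63 and 4.82 on the piPS-2F arrays. The apoptosis list had 7 of 26 genes each way (6 and 10 with median scaling). Bid, a pro-death protein, rose 9.28-fold (5.48 and 5.61 in pNSC against 8.73 and 8.80 in piPS-2F), and Bcl2, a survival protein, was lower (8.02 and 8.13 in pNSC against 4.45 and 4.68 in piPS-2F, with -2.76 and -1.43 for its other probes).

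Of 52 germline genes with a probe, many of them kept off by DNA methylation in somatic cells, 26 were detected in neither line, 23 in piPS-2F only and 3 in both; the filter on detection sets which of them were tested. Tex19.1 gave 5.30 and 4.70 on the pNSC arrays and 11.80 and 12.10 on the piPS-2F arrays and Tdrd12, of the piRNA pathway, 4.85 and 4.65 on the pNSC arrays and 10.73 and 10.89 on the piPS-2F arrays. Tdrd7, of the same protein family, was already on in pNSC and fell 10.6-fold (10.75 and 10.66 in pNSC against 7.27 and 7.32 in piPS-2F). The DNA methyltransferase cofactor Dnmt3l and the enzyme Dnmt3b rose at least 312-fold and 179-fold, with 3.02 for the second Dnmt3b probe. Other printed genes also had a probe that moved the same way by at least 4-fold less. The smallest such difference was -1.43 for Acadl, -1.92 for Ddr1, -2.57 for Egfr, -2.39 for Cldn10 and -4.01 for Ctnnd2 among genes that fell. Among genes that rose it was 1.18 for Ung, 1.304 for Hprt, 1.61 for Rbm47, 1.72 for Fgf17, 2.24 for Elf3, 2.49 for Col18a1, 4.06 for Rbpms and 4.87 for Tfap2c.

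Markers of other cell types were read beside these results. Of 15 feeder fibroblast markers with a probe 8 were tested, of which 5 were higher in piPS-2F and 1 lower. The summed linear signal of the 8 was 1269 and 1223 on the pNSC arrays, 5271 and 6559 on the piPS-2F arrays, 3037 and 3012 on the pESC-B arrays and 5730 and 5257 on the fESC arrays. Acta2 carried most of this sum in piPS-2F, pESC-B and fESC. Col1a1 gave 4.47 and 4.48 on the pNSC arrays and 6.54 and 7.19 on the piPS-2F arrays and Acta2 8.81 and 8.73 on the pNSC arrays and 11.90 and 12.24 on the piPS-2F arrays, while Col1a2, Col3a1, Lum, Pdgfrb and Postn were not detected on both arrays of either line. The part of feeder cells in the matrix and actin results was not tested. Of 8 tested neuronal markers 6 were lower and 1 higher. The exception was Stmn2, a neuronal microtubule regulator, with 4.38 and 4.45 on the pNSC arrays and 10.37 and 10.87 on the piPS-2F arrays (and a difference of 6.36 between fESC and fNSC). Of 12 trophectoderm markers with a probe 6 were tested, and all 6 were higher. They were detected in piPS-2F only, so they had to differ in order to be tested. Their summed signals were 153 and 143 in pNSC, 5170 and 4820 in piPS-2F, 6894 and 6829 in pESC-B and 4733 and 4877 in fESC. Tfap2c carried most of the sum in piPS-2F. Elf5, Eomes and Hand1 were not detected on both arrays of either line. Of 11 microglia and blood markers 3 were tested, while Ptprc, Itgam and Cx3cr1 were not detected on both arrays of either line. Laptm5 carried most of the summed signal in piPS-2F, pESC-B and fESC. Cd14 was detected in pNSC only and fell at least 2.14-fold.

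Promoter sequences of the genes detected in 1 line only are described by their CpG content and motifs. RefSeq windows on GRCm38.p6 were found for 733 of 978 genes detected in piPS-2F only, 641 of 830 detected in pNSC only and 5185 of 6239 detected in both. The median number of CpG in 300 bases was 12 for the first, 19 for the second and 22 for the third, beside 7 over all 27025 promoters in the table. Motifs were searched on both strands. The octamer ATGCAAAT lay in 2.46% of the promoters of genes detected in piPS-2F only, 1.87% of those in pNSC only, 1.25% of those in both and 1.75% of all promoters. The Klf motif CCACACCC lay in 5.05%, 3.12%, 3.78% and 3.57%, in the same order. For the proneural E-box CAGCTG the shares were 19%, 15.8%, 13.3% and 16.1%. The E-box CACGTG gave 8.19%, 8.74%, 11% and 7.24%, and GCGCATGC, the Nrf1 motif, 2.86%, 2.96%, 7.02% and 2.80%. The cyclic AMP element TGACGTCA gave 2.32%, 2.18%, 3.76% and 1.88%, the Atf4-Cebp element TGATGNAAT 0.409%, 0.468%, 0.424% and 0.969%, and the TATA box TATAAA 10.9%, 8.11%, 6.44% and 14.2%. No motif overlaps another by its letters in the windows printed above. These shares are descriptions, and a match is not a binding site.

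Along the genome the calls were spread over every chromosome. Chromosome 7 had the highest median difference, 0.32, with 225 of 662 genes higher and 139 lower, and chromosome 18 the lowest, -0.25. Chromosome X lay at 0.21, with 32.3% of 303 genes higher and 28.7% lower.

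The change between the parthenogenetic lines was set against that between the female lines, which shared none of its arrays. The interaction called 2393 genes (27.9%), and 60 genes were called in opposite directions in the 2 comparisons. Of the 46 leading and paired genes 15 had a called interaction, 11 with the larger change in the parthenogenetic lines and 4 with the smaller. Leading genes were picked for their large change in the parthenogenetic lines, which favours the former. The widest were Fabp3, at 4.26 here and 7.75 in the female lines, Ramp1, at -6.56 and -3.82, and Rhox5, at 7.86 and 5.82. Direction did not differ for any of the 15.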

How the data were processed

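Transcript levels were measured on 10 single-colour Illumina arrays. The authors deposited an intensity per probe and array that was not normalized and, to judge by values below 0, already background-subtracted, and a detection p-value for each. A second deposited table, read as log2 values, served as an alternative. The submitters' processing notes name BeadStudio 3.2, RMA and lumi. The genome build of the probes was not given in the sources used here.

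From the intensities, limma 3.58.1 (R 4.3.3) computed log2 signals (background from the detection p-values, offset 16, quantile normalization). Probes with a detection p under 0.01 on both arrays of either line were kept, 12484 of 25697, of which 11764 had a symbol. The brightest of a gene's kept probes stood for it; 2291 genes had several. All 10 arrays entered a linear model of 5 group means (lmFit, eBayes, 5 residual degrees of freedom), with p-values adjusted by the Benjamini-Hochberg method over 8585 genes. The interaction contrast was (piPS-2F minus pNSC) minus (fESC minus fNSC). The fit was tested on simulated data. Several probes were kept for 1261 called genes: in 206 (16.3%) another probe moved under 0.5 in that direction and in 28 (2.22%) one moved 2-fold the other way. A fold is a lower bound where the gene was undetected on both arrays of the dimmer line: the brighter mean is set against the higher of the probe's signal and the lowest detected signal.

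The members and gene lists were chosen with earlier results of these data known. Genes picked up by spelling alone were taken out of lists after values were seen. Named genes were the 15 highest and 15 lowest called outside the pluripotency, neural and imprinted lists, up to 3 each way per list, pairs called in opposite directions, and reprogramming factors; of the 368, those that show each group are printed. Uncalled family partners such as Atp5b and exceptions named beside a list count were added after values were seen. Ezh1, Ezh2, Pfkl and Slc2a1, which were called higher, were added then too. Alternatives were other offsets, scaling, filters, probe rules, the authors' values, the 4 arrays alone, the replicate number as a block and each array left out.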

Additional observations from a re-analysis of the deposited data

Results flagged for a closer look

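The change from pNSC to piPS-2F and that from fNSC to fESC differed, by the interaction test, for 15 of the 46 leading and paired genes and for 157 of the 368 named genes. Over all genes the test called 27.9%. The change was larger in the parthenogenetic lines for 11 of the 15. The 30 leading genes were picked for the largest differences between piPS-2F and pNSC outside the known lists, which favours a larger change there. Most other named genes were also picked by that difference, which is a part of the interaction. The count of 157 is therefore not comparable with the share over all genes. Among genes that rose, the interaction was 2.04 for Rhox5, 1.29 for Epop, 1.303 for Rbpms and 1.45 for Hk2, all with the larger rise in piPS-2F. It was -1.31 for Igf2bp1, -1.39 for Hspb1, -1.64 for Cdh1 and -3.49 for Fabp3, all with the larger rise in fESC. Among genes that fell, it was -2.74 for Ramp1, -1.76 for Gstm1, -1.41 for Pla2g7, -1.35 for Cspg5, -1.31 for Cntn1, -1.17 for Acsbg1 and -1.17 for Lrrn1, all with the larger fall in piPS-2F. Raw intensity was lower on the piPS-2F arrays (291 and 287) than on the fESC arrays (495 and 476), and its part in these differences was not tested.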

How the results depend on the processing

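Of 368 named genes, 339 kept their direction and their side of the threshold under every one of 14 alternatives in which they were tested, and of 4982 combinations of gene and setting 4922 did, 55 lost the call and 5 changed sign. Apart from the reprogramming factors, these genes were picked as called, most of them for the largest differences. That choice favours keeping the call, so the count does not describe genes in general. The sign changes were Ncapg2 at 2.37 among genes detected in both lines, 0.52 with the mean of the probes and 2.37 on the 4 arrays alone, and Sox2 at -0.0101 with median scaling and -1.31 with the mean of the probes. These follow from the probe or scaling used. With only genes detected in both lines, 6228 were tested. Of these 2957 were called (1516 higher and 1441 lower), 370 at 8-fold, and 1544 had a called interaction. The main setting called 4870 of 8585 genes, 878 of them at 8-fold. The filter on both lines leaves out genes detected in 1 line only, which had to differ in order to be tested. A minimum of 4-fold left 2045 genes and of 8-fold 878. At 8-fold, an offset of 50 gave 520 genes and the authors' values 1599, the offset setting how far dim signals are compressed. Median scaling gave 1650 higher and 3393 lower. Leaving out 1 array in turn gave 4840 to 4998 called genes (2449 to 2590 higher, 2381 to 2417 lower), 870 to 901 at 8-fold and 2364 to 2516 interactions. With the replicate number as a block the count was 4870, as without it; same-numbered arrays deviated together with r = 0.05, so the numbers are not shown to pair the arrays. Depth limits the dim line: genes there have only a bound.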
